A study of Danio rerio with 18 samples.

Results

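Zebrafish carry 2 kinds of ribosomal RNA (rRNA): a maternal kind loaded into the egg and a somatic kind made by the embryo and the adult. The positions described here are those at which these rRNAs differ. They were found by global alignment of the maternal 18S, 28S and 5.8S sequences given for unfertilized egg with the somatic sequences given for the protruding-mouth stage, and a member is any position of either rRNA that faced another base or had no partner. There were 1128 members among 12520 positions of both rRNAs (9.01%), 672 of 6368 in maternal rRNA (10.6%) and 456 of 6152 in somatic rRNA (7.41%). The rule used sequence alone, not read ends or methylation scores, though members were chosen with earlier results of these data known.

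The ribosome is built from a small subunit around 18S rRNA and a large subunit around 28S and 5.8S rRNA. Its catalytic and decoding cores are nearly invariant between species, whereas expansion segments, stretches inserted into the eukaryotic core, vary in length and sequence. Many core nucleotides carry a methyl group on the ribose 2'-oxygen, placed by fibrillarin under the guidance of box C/D small nucleolar RNAs, which pair with the rRNA around the site.

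RiboMeth-seq reads these groups from the places where alkali breaks RNA. A 2'-O-methyl group guards the bond beside it, and few fragments end there. Fragments of 20 to 40 nt were sequenced from whole-cell RNA of unfertilized eggs, 32-cell embryos, 12-somite embryos and protruding-mouth larvae (3 biological replicates each) and of adult tail (trunk) (2 replicates). Neither strain nor treatment is given in the labels, and no group carries a transgene or mutation by them. Egg, 32-cell and 12-somite reads were placed on maternal rRNA only, and protruding-mouth and adult reads on somatic rRNA only, so depth at members was compared within each of these sets. A fragment from a matched stretch reads the same in both rRNAs, whereas a fragment across a member as a rule does not. Where a gap can be placed elsewhere, a fragment that ends nearby can still read the same, as at maternal 5.8S positions 80 and 81. Libraries held from 1494730 to 15358081 read ends. In 12-somite library 3, which had 4408072, 10 positions, none a member, took 10.4% of the ends, against at most 3.11% in any other library.

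Of the 672 maternal members, 363 were mismatched and 309 had no partner, and 93 somatic members had none. The 28S rRNA held 860 members, 512 maternal and 348 somatic. The 18S rRNA held 252, 151 maternal and 101 somatic, and the 5.8S rRNA held 16, 9 maternal and 7 somatic. The identical share of aligned pairs was 93.1% for 28S, 95.8% for 18S and 95.5% for 5.8S. Gap placement is not unique: alignments of equal score held 1120 to 1128 members, and with gaps placed from the other end 1126 members were found, of which 1029 were shared.

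The short 5.8S rRNA shows its 16 members whole. Capitals mark members here and in every sequence below, and all sequences come from the deposited tables, where positions count from the 5′ end of each rRNA; chromosomal locations are not given in the sources used here. Positions 1 to 79 were identical, and all members lay between position 80 and maternal position 153 or somatic position 151.
5.8S maternal, 1 to 159: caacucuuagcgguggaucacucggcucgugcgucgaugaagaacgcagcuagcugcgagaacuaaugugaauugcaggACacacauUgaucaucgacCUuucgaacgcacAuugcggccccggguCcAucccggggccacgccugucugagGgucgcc
5.8S somatic, 1 to 157: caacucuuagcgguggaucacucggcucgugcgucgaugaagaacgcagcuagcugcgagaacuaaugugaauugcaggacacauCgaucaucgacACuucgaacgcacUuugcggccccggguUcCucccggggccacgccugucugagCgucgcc

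Members were gathered into blocks, runs in which at most 10 matched columns separate neighbours. This gave 129 blocks, 40 of them in 18S, 85 in 28S and 4 in 5.8S, and 47 blocks held only 1 or 2 members. The 5 largest blocks of 28S held 43.5% of its members and the 5 largest of 18S held 45.2%. One 28S block, maternal positions 2404 to 2703 against somatic positions 2387 to 2596, held 190 members, 140 maternal and 50 somatic, 22.1% of all 28S members. It is shown because the changes in read ends described below are concentrated in it. The maternal stretch is 300 nt and the somatic one 210 nt, with 103 maternal and 13 somatic positions unpaired.
Largest 28S block, maternal 2404 to 2703: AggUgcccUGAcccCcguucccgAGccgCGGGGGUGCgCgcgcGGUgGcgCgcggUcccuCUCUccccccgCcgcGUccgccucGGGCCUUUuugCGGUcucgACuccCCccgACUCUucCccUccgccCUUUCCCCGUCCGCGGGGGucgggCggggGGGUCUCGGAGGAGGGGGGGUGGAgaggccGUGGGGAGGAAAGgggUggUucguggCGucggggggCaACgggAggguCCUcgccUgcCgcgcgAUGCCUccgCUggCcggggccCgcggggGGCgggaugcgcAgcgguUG
Largest 28S block, somatic 2387 to 2596: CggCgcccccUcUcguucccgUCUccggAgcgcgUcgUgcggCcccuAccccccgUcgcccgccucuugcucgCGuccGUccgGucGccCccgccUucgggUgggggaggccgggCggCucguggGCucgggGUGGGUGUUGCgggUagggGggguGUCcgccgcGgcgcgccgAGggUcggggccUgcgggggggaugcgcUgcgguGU

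The other 4 large 28S blocks held 43 to 49 members each. In the block at maternal positions 3363 to 3428, 66 maternal positions faced 31 somatic ones, and 35 of its 41 maternal members had no partner. The block at 3990 to 4068, with 28 maternal members, is printed beside it because its read ends moved the other way in part of its length. Each is shown with 5 matched positions on either side.
28S block, maternal 3358 to 3433: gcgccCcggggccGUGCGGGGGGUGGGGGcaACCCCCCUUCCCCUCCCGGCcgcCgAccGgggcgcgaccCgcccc
28S block, somatic 3243 to 3283: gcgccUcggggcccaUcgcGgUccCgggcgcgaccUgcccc
28S block, maternal 3985 to 4073: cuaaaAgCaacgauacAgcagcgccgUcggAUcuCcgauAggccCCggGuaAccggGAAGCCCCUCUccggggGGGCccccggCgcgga
28S block, somatic 3834 to 3915: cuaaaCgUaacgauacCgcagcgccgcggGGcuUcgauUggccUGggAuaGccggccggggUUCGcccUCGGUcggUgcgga

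In 18S rRNA the 2 largest blocks were close together near the 5′ end. The block at maternal positions 266 to 328 held 37 members and the block at 192 to 229 held 29, of which 26 were maternal. In each of them 23 maternal positions had no partner.
18S block, maternal 187 to 234: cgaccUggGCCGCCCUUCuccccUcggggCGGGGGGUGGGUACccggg
18S block, somatic 186 to 210: cgaccCgguccccCcggggGccggg
18S block, maternal 261 to 333: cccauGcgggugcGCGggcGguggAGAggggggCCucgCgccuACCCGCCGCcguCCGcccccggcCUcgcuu
18S block, somatic 237 to 296: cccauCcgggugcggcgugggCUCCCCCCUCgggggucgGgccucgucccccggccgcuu
The other 3 named 18S blocks were smaller, with 21 members at maternal positions 881 to 913, 16 at 1661 to 1697 and 11 at 821 to 839. The block at 1661 to 1697 held 8 mismatched pairs and no gap.

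Between the blocks lay long identical stretches. The longest ran over 201 nt of 28S (maternal 2995 to 3195, somatic 2883 to 3083) and held 13 listed methylation sites. The longest in 18S was 97 nt (maternal 1078 to 1174). In windows of 200 positions, members made up 53.5% of maternal 28S positions 2401 to 2600, where no site is listed, and 0.5% of positions 3001 to 3200, where 14 sites are listed.

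**Figure D1:**
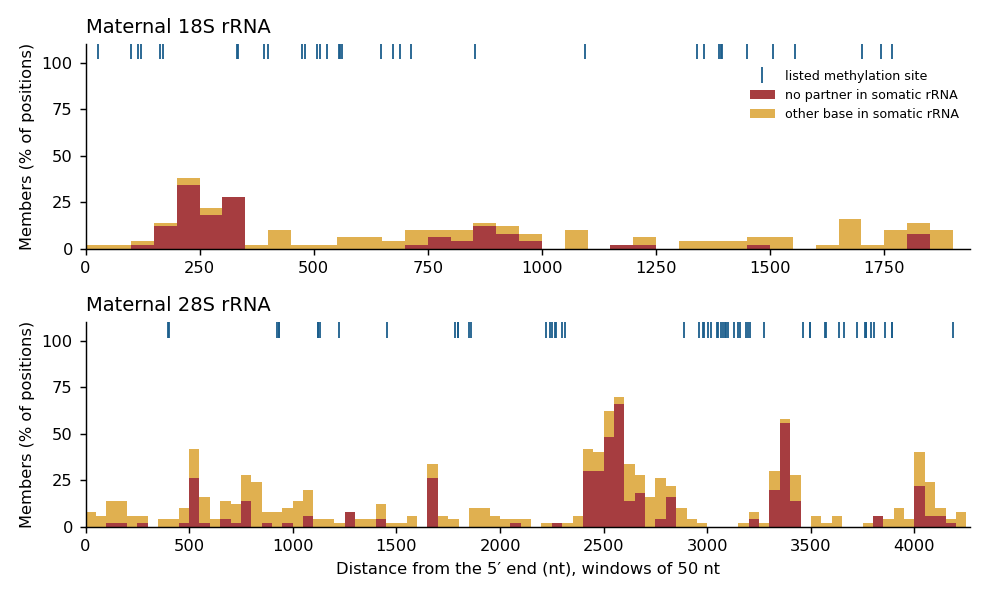
Share of maternal 18S and 28S positions that are members, in windows of 50 nt from the 5′ end, stacked by members without a somatic partner (red) and members facing another base (yellow); blue ticks above mark the authors' listed methylation sites. The tallest windows lie in the 28S block of 190 members, where there are no ticks.

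Maternal and somatic members differed in base content. Maternal members were 68.5% G and C, with C the most frequent base (36.8%), whereas somatic members were 48.7% G and C, with U the most frequent (32.7%). Matched positions, the same in both rRNAs, were 62.6% G and C. In mismatched pairs the maternal base was G or C and the somatic base A or U in 185 of 363, against 105 of the opposite kind. Transitions made up 221 of the 363 (60.9%), and the most frequent pair was maternal C against somatic U, with 101. Members without a partner were 70.2% G and C in maternal rRNA and 63.4% in somatic rRNA. They fell into runs with a median of 2 to 3 nt in 18S and 28S rRNA, and the longest run, maternal 28S positions 2562 to 2585 inside the largest block, was 24 nt of which 75.0% were G or C.

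The authors list 98 sites of 2'-O-methylation, named by human numbering, of which 35 lie on 18S, 60 on 28S and 3 on 5.8S. None was a member, and at all 98 the 2 rRNAs were paired with the same base. The list gives each site a single base and a position in both rRNAs. Its form therefore left little room for a member, and the absence of members is not a separate result. Pooled over the rRNAs, members were also farther from listed sites than matched positions were. Only 17 of 672 maternal members (2.53%) lay within 6 positions of a site, the reach of the score, against 17.5% of 5696 matched positions. For somatic members it was 12 of 456 (2.63%), against 17.6% of matched positions. The median distance to a site was 87 positions for maternal members and 35 for matched positions. The separation was wider in 28S, with medians of 115 and 49 positions, than in 18S, with 32 and 22. Not every measure went this way. In somatic 18S 20.8% of members lay over 40 positions from a site, against 33.2% of matched positions. In maternal 5.8S 22.2% of 9 members lay within 6 positions, against 20.0% of matched positions. Neighbouring positions share their distance, so these are descriptions and were not tested. The site farthest from any member was 28S Am3809, 96 positions away in the long identical stretch.

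Read ends at members were set against matched positions of the same library as a relative depth: mean ends per member over mean ends per matched position. On maternal rRNA the relative depth was 0.860, 0.850 and 0.806 in the 3 egg libraries, 0.681, 0.699 and 0.682 in the 32-cell libraries, and 0.581, 0.640 and 0.475 in the 12-somite libraries. The 3 stages did not overlap, each later stage lying below the one before it. Means were 0.839 ± 0.029 in eggs, 0.687 ± 0.0099 in 32-cell and 0.565 ± 0.084 in 12-somite embryos (SD, n = 3 each). An exact permutation test over all 1680 arrangements of the 9 libraries gave p = 0.00357, the smallest it can give (0.0143 after Benjamini-Hochberg adjustment over 4 tests), and stage took up 0.831 of the variation in log2 relative depth.

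For single pairs of stages the design cannot reach significance. The log2 difference from egg was -0.29 at 32-cell and -0.58 at 12-somite, each with every later library below every egg library and an exact permutation p of 0.1, the smallest possible with 3 against 3 (two-sided; adjusted p = 0.133). Barcodes named in the headers were shared by 2 pairs of 32-cell and egg libraries, and within these pairs the difference was -0.30 and -0.32. The 12-somite libraries shared no barcode with the eggs, so the effects of barcode and of stage cannot be told apart there. Leaving out 12-somite library 3 gave -0.46. In 28S alone the differences were -0.34 at 32-cell and -0.62 at 12-somite. In 18S alone they were -0.11, with overlap of 32-cell (0.854 to 0.956) and egg libraries (0.899 to 1.03; exact permutation p = 0.2, n = 3 each), and -0.39, with no overlap of 12-somite and egg libraries. Against matched positions more than 40 away from a member they were -0.60 and -0.86.

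On somatic rRNA the relative depth was 0.817 and 0.901 in adult tail (0.859 ± 0.059, n = 2), against 0.829, 0.841 and 0.729 in protruding-mouth larvae (0.80 ± 0.062, n = 3). The stages overlapped. The log2 difference was 0.10 (exact permutation p = 0.6, smallest possible 0.1), and it turned to -0.04 when medians over positions replaced means.

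**Figure D2:**
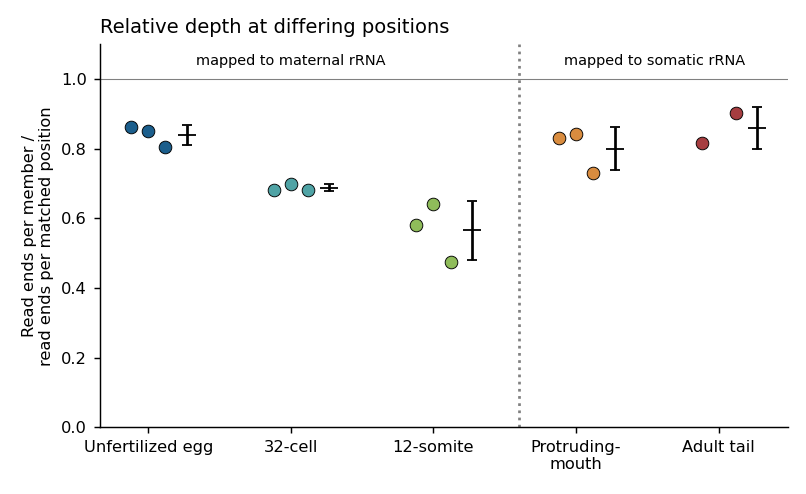
Relative depth at members (mean read ends per member over mean per matched position) in each of 14 libraries, as points, with the stage mean and SD beside them; the dotted line separates libraries placed on maternal rRNA from those placed on somatic rRNA. The 3 maternal stages do not overlap, whereas adult tail and protruding-mouth do.

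The 2 kinds of maternal member differed in level at every stage. Members without a partner had a relative depth of 0.682 ± 0.066 in eggs, 0.495 ± 0.016 at 32-cell and 0.366 ± 0.098 at 12-somite. Mismatched members had 0.972 ± 0.069, 0.851 ± 0.0067 and 0.735 ± 0.072 at the same stages (SD, n = 3 each). For both kinds, all egg libraries lay above all 32-cell libraries, and these above all 12-somite libraries. Somatic members without a partner had 0.817 ± 0.143 in adult tail and 0.734 ± 0.063 in protruding-mouth larvae.

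Depth also followed distance from the nearest member. Taking matched positions more than 40 away, the longest fragment, as 1, matched positions 1 to 5 away had 0.874 ± 0.114 in eggs, 0.682 ± 0.073 at 32-cell and 0.657 ± 0.142 at 12-somite. The members themselves had 0.814 ± 0.059, 0.538 ± 0.052 and 0.454 ± 0.104 on this scale (SD, n = 3 each). At 21 to 40 away the values were 1.12 ± 0.082, 0.859 ± 0.045 and 1.03 ± 0.24, so the 12-somite libraries spread widely there. On somatic rRNA adult tail had 0.779 ± 0.10 and protruding-mouth larvae 0.689 ± 0.055 at members, and 0.785 ± 0.071 and 0.723 ± 0.024 at 1 to 5 away, with overlapping libraries at members. Only 312 of the 5696 matched maternal positions are more than 40 away from a member, and these can lie only in long identical stretches.

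**Figure D3:**
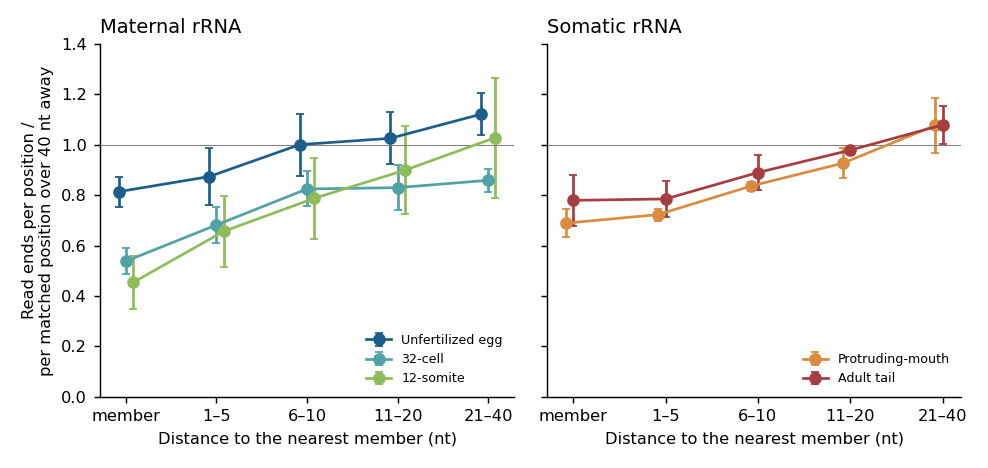
Mean read ends per position by distance to the nearest member in nt, relative to matched positions more than 40 nt away, for the 3 stages on maternal rRNA (left) and the 2 on somatic rRNA (right); points are stage means and bars SD over libraries. At members the 12-somite stage stands at 0.454 and the egg at 0.814.

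Single positions were then tested with edgeR's quasi-likelihood test over all positions of a reference, with Benjamini-Hochberg adjustment and a threshold of 0.05. Between 32-cell and egg 120 of the 672 maternal members were called, 103 lower and 17 higher. Members were lower in 15.3% and higher in 2.53%, against 3.86% and 1.73% of all 6368 positions tested, of which 5.59% were called in all. The median log2 change was -0.26 over members and 0.02 over all positions. Members without a partner accounted for 93 of the 120 calls, 77 lower and 16 higher among 309, with a median of -0.71. Among the 363 mismatched members 26 were lower and 1 higher, with a median of -0.04. By rRNA, 17.2% of the 512 28S members were lower and 3.1% higher (median -0.43). Of the 151 18S members 9.27% were lower and 0.66% higher (median 0.05). Blocks taken whole gave no call in 128 at this stage by the same test (35 at an unadjusted p under 0.05, and 67 of all 259 blocks and segments). Leaving out 1 library gave 28 to 180 member calls, with 28 without 32-cell library 3, 37 without egg library 3, 56 and 64 without 32-cell libraries 1 and 2, and 73 without egg library 1. Scaling by library size alone put the median of all positions at -0.17 and gave 86 lower and 8 higher members. Over all positions 85.6% of calls were lower under that scaling, in place of 69.1%.

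Between 12-somite and egg, 252 members were called, 187 lower and 65 higher. Members were lower in 27.8% and higher in 9.67%, against 10.6% and 11.9% of all positions, of which 22.4% were called in all, and the medians were -0.47 for members and 0.06 for all. Members without a partner again had the larger share, 122 lower and 30 higher of 309 (median -1.07), while mismatched members had 65 lower and 35 higher of 363 (median -0.18). By rRNA, 32.2% of the 512 28S members were lower and 9.57% higher (median -0.68). Of the 151 18S members 13.9% were lower and 10.6% higher (median -0.11), near the shares of all positions. Of 128 blocks taken whole, 23 were lower and 13 higher, 28.1%, against 23.2% of all blocks and segments. Without egg library 1, 2 or 3 there were 142, 161 and 110 member calls. Scaling by library size alone put the median of all positions at -0.46 and gave 226 lower and 14 higher members, so 94.2% of member calls were lower in place of 74.2%. Over all positions the share of calls that were lower was 79.6% in place of 47.1% under that scaling.

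Matched positions next to members shared the lower calls in part. At 12-somite, 13.2% of matched positions 1 to 5 away were lower, 7.84% of those 6 to 10 away and 3.21% of those more than 40 away. At 32-cell the shares were 4.36%, 2.36% and 0.641%. Among the most distant positions 23.1% were higher at 12-somite and 7.05% at 32-cell. Their median log2 change was 0.53 and 0.43, so depths set against these positions include their own rise.

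**Figure D4:**
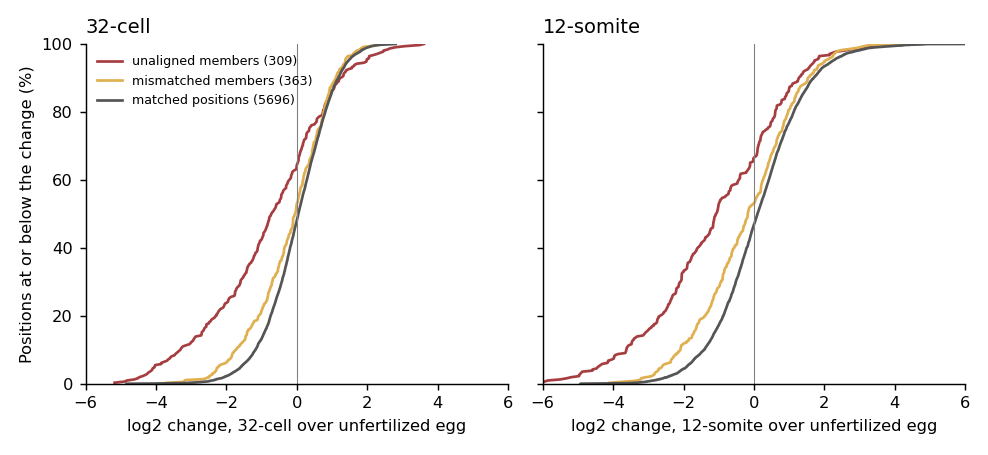
Cumulative share of positions by log2 change in read ends over unfertilized egg, for 32-cell (left) and 12-somite (right) embryos, with 309 maternal members without a partner (red), 363 mismatched members (yellow) and 5696 matched positions (grey). The red curve lies left of the others through the lower changes, with medians of -0.71 at 32-cell and -1.07 at 12-somite.

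The largest 28S block carried much of this. Its relative depth was 0.495, 0.382 and 0.526 in eggs, 0.140, 0.193 and 0.173 at 32-cell and 0.123, 0.130 and 0.051 at 12-somite, with no overlap between eggs and either later stage. At 32-cell 49 of its 140 maternal members were lower and none higher, and 125 had a log2 change below 0. At 12-somite 80 were lower and none higher, with a median log2 change of -1.88. Of all positions 3.86% were lower and 1.73% higher at 32-cell, and 10.6% and 11.9% at 12-somite. On somatic rRNA the block had 0.313 and 0.399 in adult tail, against 0.450, 0.336 and 0.129 in protruding-mouth larvae.

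Its 6 named members, chosen by size of change among called members, lay close together, in the run CCCCGUCCGCGGGGG. They had 0 to 31 read ends in the later libraries of the comparisons that named them. Rates below are read ends per 1000000 ends of a library. Position 2542, a U without a partner, had rates of 28.5, 20.7 and 46.0 in eggs, 0.552, 0.361 and 1.31 at 32-cell and 0.552, 0.485 and 0 at 12-somite. Every later library was far below every egg library, though members were named only where the stages compared did not overlap. The log2 change was -5.17 ± 0.72 at 32-cell (SE; edgeR adjusted p = 0.0026) and -5.86 ± 0.79 at 12-somite (adjusted p = 0.00088). The largest change of any named member was at 2543, a C with 1, 3 and 1 read ends in the 12-somite libraries and 418, 151 and 340 in eggs (log2 change -6.45 ± 1.08, edgeR adjusted p = 0.0023). Positions 2538, 2540, 2541 and 2545 were named with changes of -4.52 to -5.95 in one or both comparisons.

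The 28S block at 3363 to 3428 was also lower at both later stages. Its relative depth was 0.323, 0.309 and 0.391 in eggs, 0.15, 0.261 and 0.179 at 32-cell and 0.130, 0.126 and 0.073 at 12-somite, again without overlap of eggs with the later stages. At 12-somite 22 of its 41 maternal members were lower and 1 higher, against 10.6% and 11.9% of all positions. Position 3390, a C, had rates of 1.93, 1.26 and 1.64 at 32-cell, against 50.7, 26.3 and 60.8 in eggs (log2 change -4.61 ± 0.71, edgeR adjusted p = 0.0027). Its neighbour 3389, an A, changed by -5.49 ± 0.78 at 12-somite (edgeR adjusted p = 0.0011).

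The block at 3990 to 4068 held calls in both directions. Of its 28 maternal members 10 were higher and 1 lower at 32-cell, against 1.73% and 3.86% of all positions. At 12-somite 10 were higher and 4 lower, against 11.9% and 10.6% of all positions. All 5 of the named higher members at 32-cell lay between 4041 and 4047, in the run GAAGCCCCUCU, which has no somatic partner. Position 4046, a C, had rates of 134, 83.0 and 72.9 at 32-cell, against 9.18, 17.2 and 2.77 in eggs (log2 change 3.48 ± 0.64, edgeR adjusted p = 0.0066). Position 4042, an A, had rates of 203, 20.2 and 83.6 at 32-cell and 81.3, 120 and 104 at 12-somite, against 5.27, 12.7 and 10.9 in eggs. From 5' ends alone its change was only 0.52 at 32-cell and 1.05 at 12-somite, neither below the threshold. The block as a whole had 0.457 ± 0.029 in eggs, 0.620 ± 0.185 at 32-cell and 0.413 ± 0.057 at 12-somite. Its 3 32-cell libraries, at 0.831, 0.488 and 0.540, lay above all egg and 12-somite libraries, which overlapped.

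Of the members with the largest increases at 12-somite 3 were mismatched. Position 590, a G, had rates of 102, 418 and 617 at 12-somite, against 52.0, 41.5 and 22.5 in eggs (log2 change 4.16 ± 0.73, edgeR adjusted p = 0.0027). Position 600, an A of the same block, changed by 3.19 ± 0.72 (adjusted p = 0.0084). Position 3589, a C, had rates of 147, 538 and 1360 at 12-somite, against 140, 135 and 129 in eggs. Its change of 3.31 turned to -1.35 from 5' ends alone (edgeR adjusted p = 0.216).

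In the other 2 large 28S blocks eggs overlapped with the 32-cell stage. The block at 744 to 817 had 0.562 ± 0.177 in eggs, 0.316 ± 0.087 at 32-cell and 0.267 ± 0.044 at 12-somite, where all libraries lay below the eggs, and the block at 2750 to 2836 had 0.492 ± 0.151, 0.601 ± 0.15 and 0.478 ± 0.141, with overlap throughout. Most single members of the block at 2750 to 2836 rose. Of its 25 maternal members 6 had a log2 change below 0 at 32-cell (median 0.76) and 4 at 12-somite (median 0.96). In 18S, the block at 881 to 913 had 1.28 ± 0.37 in eggs, 0.545 ± 0.123 at 32-cell and 0.443 ± 0.284 at 12-somite, with eggs above both later stages in every library. Its somatic counterpart had 1.93 and 2.03 in adult tail and from 0.637 to 1.38 in protruding-mouth larvae. The 18S blocks at 192 to 229 and 266 to 328 had 0.550 ± 0.134 and 0.882 ± 0.224 in eggs, 0.457 ± 0.037 and 0.646 ± 0.118 at 32-cell and 0.319 ± 0.085 and 0.527 ± 0.151 at 12-somite. In the block at 192 to 229 all 12-somite libraries lay below the eggs, in the block at 266 to 328 they overlapped with them, and 32-cell and egg libraries overlapped in both. The block at 821 to 839 had 0.707, 1.26 and 0.396 in eggs and 0.417, 1.32 and 0.716 at 32-cell. At 12-somite it had 0.756, 0.478 and 0.548, so the stages overlapped. Its 5 maternal members had median log2 changes of 1.39 at 32-cell and 1.25 at 12-somite. The block at 1661 to 1697 had 0.763, 0.852 and 0.720 in eggs and 0.780, 0.730 and 0.835 at 32-cell. All its 12-somite libraries, at 0.634, 0.585 and 0.236, lay below the eggs. Over all 128 maternal blocks, every 12-somite library was below every egg library in 45 (35.2%), against 31.7% of all blocks and segments between them, and above in 9 (7.03%), against 6.95%. For 32-cell 38 blocks were below (29.7%), against 27%, and 16 above (12.5%), against 15.4%. Of 125 somatic blocks 13 were lower in both adult libraries (10.4%), against 8.2%, and 21 higher (16.8%), against 17.6%. These shares are near the background.

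Of the 9 maternal 5.8S members 1 was called in each comparison (11.1%), against 5.59% of all positions at 32-cell and 22.4% at 12-somite. Position 127, a C facing somatic U, averaged a rate of 46.6 at 32-cell and 38.5 at 12-somite, against 204 in eggs (log2 change -1.96 ± 0.55 and -2.01 ± 0.55, edgeR adjusted p = 0.0441 and 0.0187). The other 8 changed by -1.13 to 0.95 and none was called. Of the 7 somatic 5.8S members 6 averaged more read ends in adult tail than in protruding-mouth larvae, by up to 1.74 in log2 at position 98, but none was called (adjusted p of at least 0.520).

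Between adult tail and protruding-mouth larvae none of the 456 somatic members was called by edgeR, against 0.0325% of 6152 positions, 2 matched ones. In simulated data this fit recovered only 9% of positions changed 4-fold, so the lack of calls does not show a lack of change. At an unadjusted p under 0.05 there were 46 members and 559 of all 6152 positions, and DESeq2 called 3 members and 78 of all positions. Some of these libraries share barcodes, and with barcode as a block edgeR called 47 members (10.3%) and 600 of all positions (9.75%), so the call depends on the block while the share of members is near that of all positions. Protruding-mouth library 1 shares its barcode with no adult library, so in that fit only the pairs with a shared barcode bore on the difference. Few libraries were thus left to set the spread. Without the block and without protruding-mouth library 1, edgeR called 6 members and 64 of all positions. Within the pairs of adult and protruding-mouth libraries that shared a barcode, the log2 difference in relative depth was -0.04 and 0.31.

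Scores were set against members next. The score of a position is 1 minus its read ends over the weighted mean of its 6 neighbours on each side, from 0 to 1, and high scores mark methylated or otherwise protected nucleotides. No member reached 0.75 in every library, and neither did any unlisted matched position, whereas 78 of the 98 listed sites did on maternal rRNA and 80 on somatic rRNA. Over all scored positions these are 1.23% and 1.31%. The authors' list belongs to the same series of scores, so the contrast between listed and unlisted positions is not independent of it. The median score of members was 0.174 on maternal and 0.125 on somatic rRNA, against 0.157 and 0.135 for unlisted matched positions.

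The same 18S member, maternal position 1315 and somatic position 1270, had the highest mean score of members in both rRNAs. It is a maternal U facing a somatic C in the sequence used here, at the edge of an 87 nt identical stretch without a listed site. It scored 0.784 ± 0.104 in eggs, 0.840 ± 0.082 at 32-cell, 0.872 ± 0.062 at 12-somite, 0.850 ± 0.014 in protruding-mouth larvae (n = 3 each) and 0.670 ± 0.083 in adult tail (n = 2). The deposited somatic sequence itself is not settled there: the adult table gives U, so the mismatch U1315C (maternal base, maternal position, somatic base) exists only by the protruding-mouth table. It was the only base at which the 2 somatic tables differed.
18S maternal, 1305 to 1325: uuaauuugacUcaacacgggG
18S somatic, 1260 to 1280: uuaauuugacCcaacacgggA

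Of the 98 listed sites 16 had a member within 6 positions, the reach of the score, and 3 had it within 3. With gaps placed from the other end there were 15, without 5.8S Gm75, whose flanks over that reach read the same in both rRNAs. The 8 sites in 18S were Am27, Um286, Um287, Gm509, Am512, Gm644, Um1442 and Am1637, and the 7 in 28S were Gm1509, Gm1612, Um2824(G), Cm3916, Gm4340, Am4560 and Um4590. Their scores were tested with limma over all 98 sites. Between protruding-mouth and egg 2 of 98 sites (2.04%) passed an adjusted p of 0.05, of which 1, 28S Cm3916, was among the 16. Between 12-somite and egg none of the 98 passed (9 at an unadjusted p under 0.05, of which 5 were among the 16).

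28S Cm3916 was the site nearest to a member. Directly upstream of it maternal rRNA has C and somatic rRNA A (C3196A, maternal numbering), at the end of the 201 nt identical stretch, so that every other position read by its score is the same in both rRNAs.
28S maternal, 3187 to 3207: uagucuggcCcugugaagaga
28S somatic, 3075 to 3095: uagucuggcAcugugaagaga
The C of the site follows the capital. Its score was 0, 0.058 and 0 in eggs, 0.226, 0.522 and 0.346 at 32-cell, 0.622, 0.528 and 0.138 at 12-somite, 0.779, 0.757 and 0.663 in protruding-mouth larvae and 0.898 and 0.904 in adult tail. Eggs were below every later library. The score differed by 0.714 ± 0.109 between protruding-mouth and egg (SE; limma adjusted p = 0.0054), and it stayed under 0.05 in all 21 alternatives, including one that left members out of the flanks. None of these alternatives included barcode. Egg and protruding-mouth libraries shared no barcode and were read on different rRNAs. Stage, barcode and reference therefore cannot be told apart in this difference. The 12-somite libraries, read on the same maternal sequence as the eggs, differed from them by 0.410 ± 0.109, which did not pass (limma adjusted p = 0.173). In eggs 3216, 2409 and 2909 ends fell at the site against flanking means of 3122, 2557 and 2562.

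The other near sites did not pass in either comparison. 28S Am4560, 4 positions upstream of C3864U, spread widely: 0.091, 0.351 and 0.293 in eggs, 0.743, 0 and 0.439 at 32-cell, 0.641, 0.451 and 0.877 at 12-somite, 0.556, 0.382 and 0.869 in protruding-mouth larvae and 0.866 and 0.927 in adult tail. The difference between protruding-mouth and egg was 0.358 ± 0.185 (limma adjusted p = 0.437).
28S maternal, 3850 to 3870: ugcaauaguaauccCgcucag
28S somatic, 3699 to 3719: ugcaauaguaauccUgcucag
The site is the central A. 18S Gm509, 3 positions downstream of A552G, averaged 0.966 ± 0.012 at 12-somite and 0.919 ± 0.066 in protruding-mouth larvae, against 0.801 ± 0.147 in eggs, where library 2 stood at 0.633. For this egg mean the authors' overview gives 0.878, the only one among the near sites that differed from the mean of the library scores. 18S Um286, 5 and 6 positions downstream of unpaired maternal positions, averaged 0.901 ± 0.031 at 12-somite and 0.973 ± 0.015 in eggs, a difference of -0.072 ± 0.016 (limma adjusted p = 0.121).

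The other 12 near sites scored on average between 0.783 and 0.99 at every stage, and their differences from egg were between -0.072 and 0.089 in protruding-mouth larvae and between -0.053 and 0.080 in 12-somite embryos. Over the 16 sites the median absolute difference between protruding-mouth and egg was 0.042, against 0.026 over all 98 sites, and for 12-somite it was 0.034, against 0.025.

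**Figure D5:**
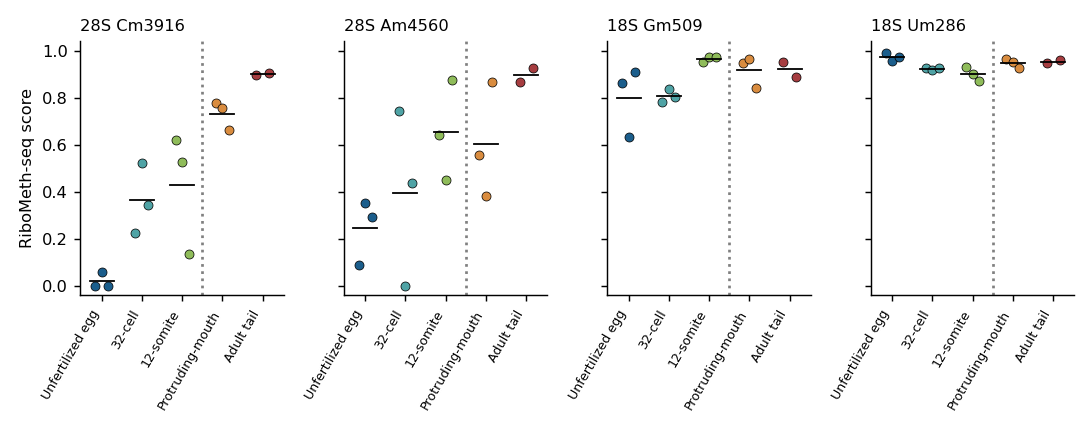
RiboMeth-seq score (0 to 1) of 4 listed sites within 6 positions of a member, by stage, with a point per library and a line at the stage mean; the dotted line separates stages read on maternal rRNA from those read on somatic rRNA. At 28S Cm3916 both adult libraries lie near 0.9 and all 3 egg libraries at or below 0.058.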

How the data were processed

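RiboMeth-seq was analysed in 14 libraries of 5 stages. The submitters' processing notes name cutadapt 2.0 and Bowtie2 2.3.4.1; the genome build is not given in the sources used here. The deposited tables hold counts of 5' and of 5' plus 3' read ends at each rRNA position, not normalized, and a RiboMeth-seq value as a fraction. The authors' overview gives its stage means as a score. Scores recomputed from the deposited counts differed from the fraction by at most 5.00e-13 in the 12 libraries compared, which did not include adult tail. Of 490 overview means, 25 differed by over 0.001 from the library means, and the library scores were used. The overview marks barcode-corrected sites by colour, which could not be read here. Whether these 25 means are the corrected ones was therefore not checked. Adult columns carry numbers other than the titles, so these libraries were called A and B, and only their counts of both ends were used. 61 columns of values were not used, nor were 4 small-RNA samples.

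Alignment used Biopython 1.88 (match 2, mismatch -3, gap open -6, gap extend -0.5). Counts were tested in edgeR 4.0.16 (TMM, quasi-likelihood, all stages of a reference, mean count of at least 10, which every position passed) and site scores in limma 3.58.1 over all 14 libraries. Replicates were biological, per the labels. Their numbers were not taken to pair the samples: 1 of 9 same-numbered pairs correlated above 0.1 (r from -0.19 to 0.28). This does not exclude a pairing. The egg and 32-cell pairs that shared a barcode correlated at 0.14 and 0.26, and neither main fit held a barcode term. Both fits were tested on simulated data. For limma the simulated scores had the same fixed spread at every site, below that of 28S Cm3916 at 12-somite. Recovery at sites that spread so widely was therefore not measured. For edgeR, 200 positions were changed 4-fold in each comparison. It recovered 40.5% of them for 32-cell minus egg and 54% for 12-somite minus egg, with 2.41% and 5.26% of calls false. For adult tail minus protruding-mouth it recovered 9%, and 14.3% of calls were false. Named were the 5 largest blocks of 18S and of 28S and all 5.8S members, up to 5 called members in each direction with the largest change and no overlap between stages, sites within 6 positions of a member, and the extremes of distance. Members and lists were chosen with earlier results of these data known. Intervals between replicates cover library spread, and read ends are not independent molecules. Alternatives varied the alignment, filter, normalization, tool, read end, flanks, block and libraries.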

Additional observations from a re-analysis of the deposited data

How the results depend on the processing

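The exact permutation test of relative depth at maternal members over 3 stages kept its p under 0.05 in every alternative (0.00357 to 0.0278). The highest p came with a replicate block and is the smallest which that alternative can give. This test takes no account of direction. The differences of 32-cell and 12-somite from egg kept their sign in all of their alternatives. Adult minus protruding-mouth changed sign with medians (-0.0356). Against 120 members called between 32-cell and egg, DESeq2 called 192, the 2 stages alone 231, barcode as a block 225 and a replicate block 113. Of 128 blocks taken whole 0 were called. Leaving out a library gave 28 to 180 members. Without egg library 1 or 3, or 32-cell library 1, 2 or 3, the count was 73, 37, 56, 64 and 28. Against 252 members called between 12-somite and egg, DESeq2 called 293 and a replicate block 217. Of 128 blocks taken whole 36 were called. Leaving out a library gave 110 to 299 members, with 142, 161 and 110 without egg library 1, 2 or 3. Over all positions these calls ranged from 209 to 1326 (35 to 858 with a library left out) and from 1032 to 1911 (312 to 2183). Between adult and protruding-mouth, DESeq2 called 3 members (78 of all positions), barcode as a block 47 (600) and leaving out a library 0 to 6 (0 to 64), the 6 without protruding-mouth library 1. Library size alone gave 94, 240 and 0 members. Sites near a member that limma called numbered 2 in place of 1 between protruding-mouth and egg from 5' ends. Between 12-somite and egg they numbered 1 in place of 0 on the logit scale or without 12-somite library 1 or 3 (0 to 1 over libraries left out). Over all 98 sites the counts of calls were 1 to 3 and 0 to 1. A replicate block gave 1 and 0. Of the named positions, 28S 3589 turned to -1.35 from 5' ends. Among the alternatives for single named items, 26 values kept their sign but no longer passed an adjusted p of 0.05, and 4 newly passed it. Joining blocks over 5 or 20 columns gave 200 or 84, and other alignment scoring 1080 members. The cause of these changes was not tested.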

Other observations

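The 12-somite libraries listed some members without any read end: 1 of 672 members in library 2 and 6 in library 3, the shallowest of them, against 0 and 3 of 5696 matched positions in the same libraries. No member and no matched position was without read ends in the egg and 32-cell libraries. On somatic rRNA no member and 1 matched position, in adult tail library A, were without them.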
